A study of Mus musculus with 36 samples.

Results

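The genes described here are 9 that make, compete for or supply the substrates of nitric oxide synthesis from arginine: Nos2, Gch1, Slc7a2, Slc7a1, Ass1, Asl, Arg1, Arg2 and Odc1. The rule lists them by name and uses no measured value, though they were chosen with earlier results of these data known. All 9 were found among the 54232 gene identifiers of the count files. All 9 also passed the filter on low counts, which kept 12957 genes for testing. RNA was sequenced from 36 libraries of mouse bone marrow-derived macrophages, cells grown from marrow for 5 days in 20 ng/mL of the growth factor MCSF. The labels give 2 genotypes, wild type (written C65BL6 in the series' description) and NOS1 KO, and 3 treatments, control and 100 ng/mL lipopolysaccharide (LPS, a component of bacterial outer membranes) for 2 h or 8 h, with 6 libraries in each of the 6 groups. The age and sex of the mice, the number of animals and the allele behind the KO label are not stated in the labels, which also name no culture or mouse for a library. All p-values therefore rest on library-to-library spread, which may be technical only.

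Activated mouse macrophages make nitric oxide from arginine with the inducible synthase encoded by Nos2, and this enzyme needs the cofactor tetrahydrobiopterin, whose synthesis begins with the enzyme encoded by Gch1. Arginine enters the cell through the cationic amino acid transporters encoded by Slc7a1 and Slc7a2, and it can be rebuilt from citrulline, the other product of the synthase, by the enzymes encoded by Ass1 and Asl. The arginases encoded by Arg1 (cytosolic) and Arg2 (mitochondrial) split the same arginine into ornithine and urea, and the decarboxylase encoded by Odc1 turns ornithine into putrescine, the first polyamine. A high Nos2 level is a textbook mark of macrophages activated by LPS, and a high Arg1 level one of macrophages activated by interleukin-4.

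Library totals ran from 8953489 to 18482551 counts. All 8 macrophage marker genes were detected in every library, while the 7 T and NK cell markers summed to at most 0.539 CPM in any library (CPM, reads of a gene relative to the scaled library total). The gene named in the KO label went against that label: KO-labelled controls held 4.16 ± 1.04 CPM of Nos1 against 0.065 ± 0.0988 CPM in WT-labelled ones (SD, n = 6), a 61.6-fold difference (edgeR adjusted p = 9.19e-08). A count over the whole gene does not show whether a deleted exon is present, so the libraries are called by their labels throughout. The first principal component of the counts, after group means were subtracted, split the libraries into 2 unlabelled sets of 18 with 3 of each in every group. Here set A holds replicates numbered 1, 2 and 6, and set B those numbered 3, 4 and 5. Neutrophil marker genes summed to 24.2 to 99.7 CPM in set A and 88.9 to 310 CPM in set B. Skeletal muscle markers summed to more than 100 CPM in 4 WT-labelled libraries, LPS 2 h replicates 5 and 6 and LPS 8 h replicates 5 and 6, and reached 3960 CPM in LPS 8 h replicate 5.

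LPS raised 6 of the 9 genes in WT-labelled cells at 2 h: Nos2, Slc7a2, Arg2, Gch1, Odc1 and Slc7a1. In the same comparison 37.9% of all tested genes were called (adjusted p below 0.05 in edgeR's quasi-likelihood test), 20.3% higher and 17.7% lower. At 8 h Nos2, Slc7a2, Gch1, Arg2 and Ass1 were above control and Slc7a1 was below it, where 71.2% of all tested genes were called, 34.2% higher and 37% lower. Between 2 h and 8 h Nos2, Slc7a2, Gch1 and Ass1 rose further and Slc7a1 and Odc1 fell, against 62.8% of all genes called, 30% higher and 32.8% lower. In KO-labelled cells the same 6 genes were called at 2 h (35.3% of all genes called, 18.9% higher and 16.4% lower) and the same 6 at 8 h (72.1%, 34.9% higher and 37.2% lower). From 2 h to 8 h 7 genes were called there (65.2% of all genes, 31.5% higher and 33.7% lower), the 6 of the WT-labelled cells and Asl, which fell by 0.32 on the log2 scale. With the set as a term in the fit, the WT-labelled cells also had Asl called lower from 2 h to 8 h (-0.22, adjusted p = 0.00458), as well as Arg1 (-1.26, adjusted p = 0.00206) and Arg2 (-1.33, adjusted p = 0.00961). The median log2 fold change of the 9 genes in WT-labelled cells was 1.19 at 2 h and 3.11 at 8 h, where the median over all tested genes was -0.02 and -0.06. Markers of other cells moved with LPS as well. Of 5 tested stromal cell markers, 5 were higher at 8 h under the WT label and 4 under the KO label, and their sums ran from 18.3 to 39.0 CPM in WT-labelled controls and from 30.2 to 205 CPM at 8 h, against 12.5 to 28.2 and 33.6 to 50.7 CPM under the KO label. Of 5 tested dendritic cell markers, 3 were higher under either label, with sums of 1.25 to 2.97 and 10.5 to 40.6 CPM, and 0.682 to 3.54 and 9.72 to 55.1 CPM, in the same order. The highest level of a single dendritic cell marker in any library was 43 CPM, for Ccr7, and the next was 9.66 CPM, for Xcr1. Among the 7 markers of each list, Cd209a and Lum were at 0 in 29 and 20 of the 36 libraries, and every other one in at most 7. The stromal sum of 205 CPM was that of WT-labelled LPS 8 h replicate 5 alone, the library with 3960 CPM of muscle markers. The next highest in its group was 82.5 CPM. All 8 skeletal muscle markers were called higher at 8 h under the WT label and 0 under the KO label. Their sums in WT-labelled LPS 8 h replicates 5 and 6 were 3960 and 113 CPM. In replicates 1, 2, 3 and 4 of that group they were 25.5, 9.66, 7.37 and 5.56 CPM, where WT-labelled controls ran from 13.1 to 61.1 CPM. The part of these markers' cells in the LPS changes was not tested. Within set A, where Arg1 was not tested, 6 of 8 genes were called at 2 h under the WT label (38.4% of all tested genes) and 6 under the KO label (32.9%), 5 at 8 h (67.5%) and 6 (67.5%), and from 2 h to 8 h all 8 under both labels (57.9% and 58.9%). Within set B, 8 of 9 genes were called at 2 h under the WT label (50.8% of all tested genes) and 7 under the KO label (48%), 7 at 8 h under both (76% and 77.2%), and from 2 h to 8 h 7 and 8 (70.5% and 72.2%).

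**Figure D1:**
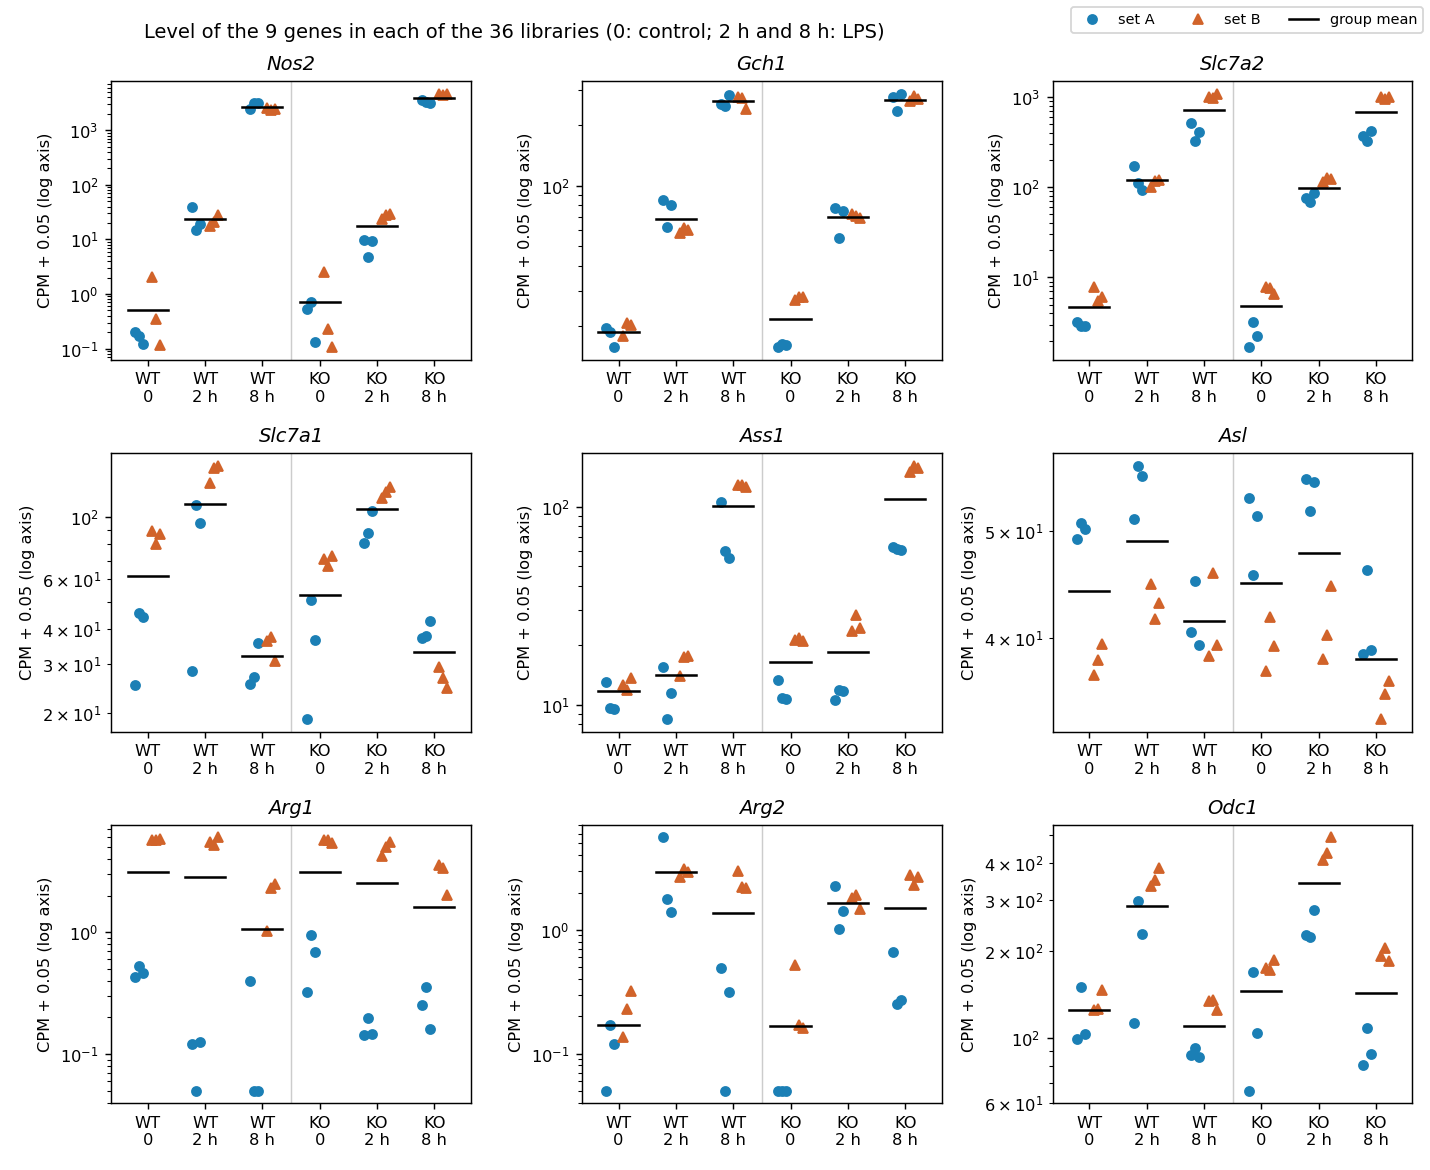
Level of each of the 9 genes in every library, as CPM with 0.05 added, on a log axis, for the 3 treatments of each genotype label. Circles are set A, triangles set B and bars the group means of 6 libraries: Nos2 goes from a mean of 0.458 to 2680 CPM in WT-labelled cells, while Arg1 is higher in set B than in set A in all 6 groups.

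Nos2 (ENSMUSG00000020826, mm10 chr11:78920787-78960254, plus strand) was close to silent in control cells. Its lowest, median and highest levels in the 6 WT-labelled controls were 0.0674, 0.135 and 2.04 CPM, from 1 to 24 counts per library. After 2 h of LPS they were 14.9, 19.8 and 40.0 CPM, and after 8 h 2360, 2520 and 3170 CPM. The 3 treatments did not overlap. At 8 h Nos2 took 0.203% of all counts of a WT-labelled library. The log2 fold change over control was 5.81 (SE 0.58, adjusted p = 3.48e-10) at 2 h and 12.64 (SE 0.66, adjusted p = 4.42e-18) at 8 h. Because the 6 WT-labelled controls hold only 35 Nos2 counts in all, 24 of them in replicate 3, the size of this fold rests on few reads: it was 7.65 at 2 h and 14.53 at 8 h in set A alone, and 5.00 and 11.78 in set B alone.

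In KO-labelled cells Nos2 followed the same course. The lowest, median and highest levels were 0.0562, 0.33 and 2.48 CPM in controls, 4.78, 16.8 and 28.7 CPM at 2 h, and 3110, 3970 and 4680 CPM at 8 h. The treatments again did not overlap, and the 2 h values fell into a low and a high part. The 3 low values, 9.61, 4.78 and 9.24 CPM, were those of set A, and the 3 high ones, 24.1, 28.0 and 28.7 CPM, those of set B. The log2 fold change over control was 4.73 (SE 0.54, adjusted p = 8.75e-09) at 2 h and 12.54 (SE 0.65, adjusted p = 2.91e-18) at 8 h.

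Gch1 (ENSMUSG00000037580, chr14:47153895-47189413, minus strand), the gene of the entry enzyme of tetrahydrobiopterin synthesis, rose in steps of similar size. WT-labelled controls ran from 15.7 to 20.8 CPM with a median of 19.0, the 2 h libraries from 58.3 to 84.7 with a median of 62.1, and the 8 h libraries from 242 to 283 with a median of 265. No library of one treatment reached the range of the next. The rise was 3.62-fold at 2 h (log2 1.86, SE 0.13, adjusted p = 5e-14) and 14.0-fold at 8 h (log2 3.81, SE 0.14, adjusted p = 2.38e-22). KO-labelled cells gave means of 21.8 ± 6.33, 70.0 ± 7.9 and 268 ± 18.2 CPM (SD, n = 6), with log2 fold changes over control of 1.68 (adjusted p = 6.61e-13) and 3.62 (adjusted p = 7.51e-22).

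The arginine transporters moved apart. Slc7a2 (ENSMUSG00000031596, chr8:40862396-40922308, plus strand) encodes the transporter known as CAT2 and rose throughout. Its lowest, median and highest levels in WT-labelled cells were 2.83, 4.31 and 7.81 CPM in controls, 93.9, 114 and 172 CPM at 2 h, and 325, 749 and 1090 CPM at 8 h. The 3 treatments did not overlap, and the rise over control was 25.6-fold at 2 h (adjusted p = 9.35e-12) and 154-fold at 8 h (adjusted p = 3.22e-16). KO-labelled means were 4.82 ± 2.79, 99.3 ± 26.2 and 679 ± 338 CPM (SD, n = 6), a rise of 20.3-fold and 139-fold. The wide spread at 8 h lay between the sets: the 3 WT-labelled libraries of set A held 519, 325 and 412 CPM and those of set B 991, 979 and 1090 CPM. A non-coding gene on the opposite strand, Gm26584, overlaps exons of Slc7a2 and held 50 counts in all libraries against 100260 for Slc7a2.

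Slc7a1 (ENSMUSG00000041313, chr5:148327410-148399904, minus strand) encodes CAT1, the transporter found in most cell types, and its rise was transient. In WT-labelled cells its mean went from 61.9 ± 27.1 CPM in controls to 111 ± 46.4 at 2 h and to 32.0 ± 5.09 at 8 h (SD, n = 6). In 5 of the 6 libraries at 2 h the level was above every control, and in replicate 1 it was 28.3 CPM, inside the control range of 25.2 to 89.0. The log2 change at 2 h was 0.85 (SE 0.30, adjusted p = 0.0239). This call was lost with library totals alone as the scaling (0.56, adjusted p = 0.106) and with the compared groups fitted alone (0.83, adjusted p = 0.0911). It was also lost without the 4 libraries with muscle reads (0.77, adjusted p = 0.0921) and without the 6 libraries with BMDM in their genotype label (0.82, adjusted p = 0.0716). Leaving out 1 library of the compared groups, which hold 6 each, lost the call in 5 fits, with adjusted p up to 0.0685. Those were the fits without WT-labelled control replicates 1, 2 or 6 or LPS 2 h replicates 4 or 5. In KO-labelled cells the mean went from 52.8 ± 21.7 CPM in controls to 107 ± 19.2 at 2 h (SD, n = 6), and all 6 libraries at 2 h lay above every control. The log2 change there was 1.02 (SE 0.30, adjusted p = 0.0077).

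By 8 h Slc7a1 was below control, by 0.95 on the log2 scale in WT-labelled cells (log2 change -0.95, SE 0.31, adjusted p = 0.00639) and by less in KO-labelled cells (-0.68, SE 0.31, adjusted p = 0.0452). The fall below control was seen in set B, with log2 changes of -1.28 (adjusted p = 8.6e-14) and -1.39 (adjusted p = 3.09e-14). In set A the changes were -0.39 (adjusted p = 0.384) and 0.15 (adjusted p = 0.742). The KO-labelled call was also lost with the set as a term in the fit (-0.56, adjusted p = 0.054) and without the 4 libraries with muscle reads (-0.68, adjusted p = 0.0567). Leaving out 1 library of the compared groups, which hold 6 each, lost it in 8 fits. Those were the fits without control replicates 2, 3, 4 or 5 or without LPS 8 h replicates 1, 3, 4 or 5. The fall from 2 h to 8 h was called under both labels (log2 -1.80, adjusted p = 6.16e-06, and -1.70, adjusted p = 1.34e-05), and it was called in set A alone as well (-1.42 and -1.22).

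**Figure D2:**
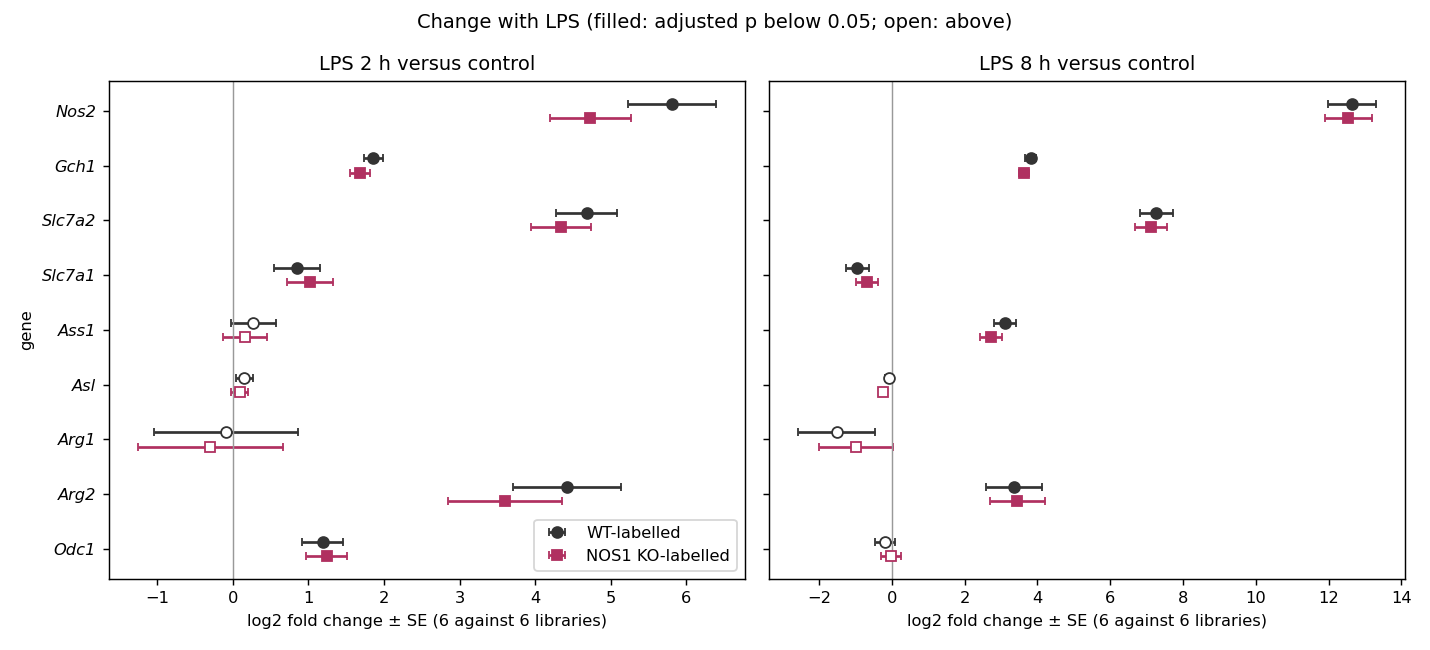
Log2 fold change of each gene after 2 h (left) and 8 h (right) of LPS against control, with SE, for 6 against 6 libraries of each genotype label; filled points have an adjusted p below 0.05. The x axes differ between panels. Nos2 and Slc7a2 lie farthest to the right at 8 h, at 12.64 and 7.27 in WT-labelled cells, and Slc7a1 changes side between 2 h and 8 h.

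Gch1 was above control at 2 h and 8 h, while Slc7a1 was above it at 2 h and below it at 8 h. Their 250 bases before the start site are shown because the RefSeq and GENCODE start sites of these 2 genes coincide. Promoters of 4 of the 9 genes were matched in the RefSeq table (build GRCm38.p6, the same assembly as mm10). They are printed 5′ to 3′ on the strand of the gene, and capitals mark matches, on either strand, to the CCAAT box, the GC box (letters GGGCGG), the box read as TATAA, the E box (letters CACGTG), the AP-1 site (letters TGANTCA), the gamma-activated site (letters TTCNNNGAA), the interferon-stimulated response element core or the NF-kB motif.
Gch1, chr14:47189414-47189663, minus strand: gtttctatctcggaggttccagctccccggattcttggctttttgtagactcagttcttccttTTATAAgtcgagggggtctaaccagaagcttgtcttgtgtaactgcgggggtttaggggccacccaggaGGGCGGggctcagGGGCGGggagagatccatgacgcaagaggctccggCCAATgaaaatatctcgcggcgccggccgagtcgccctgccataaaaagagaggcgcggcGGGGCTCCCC
Slc7a1, chr5:148399905-148400154, minus strand: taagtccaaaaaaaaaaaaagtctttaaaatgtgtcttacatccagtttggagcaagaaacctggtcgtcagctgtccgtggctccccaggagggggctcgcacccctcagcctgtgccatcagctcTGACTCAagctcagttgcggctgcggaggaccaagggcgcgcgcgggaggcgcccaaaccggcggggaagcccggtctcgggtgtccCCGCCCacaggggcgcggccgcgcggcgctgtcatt
The Gch1 window ends, at the start site, with a match to the NF-kB motif, which 7.25% of the 32851 promoters in the table hold. It also holds GGGCGG at 2 places (in 32.7% of promoters), CCAAT once (33.8%) and, on the 2 strands, overlapping matches to TATAA (22.8%). The main Slc7a1 window holds 1 AP-1 match (6.75% of promoters) and 1 GGGCGG, and no NF-kB match. A second RefSeq start of Slc7a1 holds TTCNNNGAA (7.02% of promoters) and TATAA matches. Of the other genes matched, Odc1 holds GGGCGG at 4 places, and Ass1 holds GGGCGG and CACGTG (6.02% of promoters) once each. A match describes the letters only.

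The citrulline-recycling enzymes also differed from each other. Ass1 (ENSMUSG00000076441, chr2:31470207-31520672, plus strand), the synthase that joins citrulline to aspartate, was called higher at 8 h over all libraries, and in set B already at 2 h. WT-labelled controls held 9.51 to 13.7 CPM (median 12.2), the 2 h libraries 8.45 to 17.7 (median 14.8) and the 8 h libraries 55 to 129 (median 116). Control and 2 h overlapped, and every 8 h library lay above both. The log2 change was 0.27 at 2 h (SE 0.30, adjusted p = 0.515), with its sign turned when libraries were scaled by their totals alone (-0.03), and 3.11 at 8 h (SE 0.31, adjusted p = 7.25e-11). In set B alone the 2 h change was called under both labels (0.38, adjusted p = 0.000854, and 0.26, adjusted p = 0.00849), and in set A alone it was 0.15 and -0.03. In KO-labelled cells Ass1 went from 16.4 ± 5.35 to 18.4 ± 7.84 and 109 ± 51.9 CPM (SD, n = 6), a log2 change of 2.72 at 8 h (adjusted p = 8.78e-10). The pseudogene Gm5424, 99.5% identical over 1240 bases, held 98 counts against 17439 for Ass1.

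Asl (ENSMUSG00000025533, chr5:130011258-130029247, minus strand), the lyase that releases arginine, stayed within a narrow range. Its WT-labelled means were 44.1 ± 6.5, 49.0 ± 6.79 and 41.4 ± 3.13 CPM, and its KO-labelled means 44.8 ± 6.58, 47.7 ± 7.67 and 38.3 ± 4.26 CPM (SD, n = 6). All 36 libraries lay between 33.8 and 57.2 CPM. Over all libraries the changes from control did not pass the test, with log2 values from -0.23 (adjusted p = 0.0668) to 0.15 (adjusted p = 0.308), and with library totals alone they were -0.16 and -0.21 at 2 h and -0.86 (adjusted p = 1.42e-08) and -1.05 (adjusted p = 1.95e-10) at 8 h. That scaling moved the median of all genes at 8 h to -0.83 and -0.88. With the set as a term Asl was lower at 8 h under the KO label (-0.22, adjusted p = 0.00435), and in set A alone it was lower at 8 h under both labels (-0.26, adjusted p = 0.0205, and -0.28, adjusted p = 0.0145). Under the KO label it was also called lower at 8 h with the compared groups alone (-0.26, adjusted p = 0.0439). The same held without LPS 8 h replicate 2 (adjusted p = 0.0262), control replicate 3 (0.032) or control replicate 5 (0.0428). In set B alone it was higher at 2 h under the WT label (0.18, adjusted p = 0.0398).

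Arg1 (ENSMUSG00000019987, chr10:24915221-24927484, minus strand) was low in every group, and its level followed the library set. In WT-labelled controls the 3 libraries of set A held 0.376, 0.482 and 0.417 CPM (5 to 8 counts each) and those of set B 5.69, 5.64 and 5.73 CPM (67 to 94 counts). In KO-labelled controls set A held 0.273, 0.903 and 0.634 CPM and set B 5.69, 5.64 and 5.34 CPM. The sets did not overlap in any of the 6 groups, and the set B mean was 9.21 to 114 times that of set A. Neutrophil marker genes moved with the sets too: their sums ran from 24.2 to 84.6 CPM in set A and 155 to 310 CPM in set B among WT-labelled libraries, and from 49.2 to 99.7 and 88.9 to 193 CPM among KO-labelled ones. Of the 8 neutrophil markers, S100a8, S100a9, Ngp, Camp and Ltf were at 0 in no library, Mpo in 1, Elane in 4 and Ly6g in 21. The part of these cells in the Arg1 difference was not tested, and in bulk RNA fewer cells of a type and less RNA per cell cannot be told apart.

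Over all libraries the change of Arg1 with LPS did not pass the test. The log2 change at 8 h was -1.52 (SE 1.07, adjusted p = 0.203) in WT-labelled and -0.99 (SE 1.01, adjusted p = 0.388) in KO-labelled cells, with 95% intervals from -3.69 to 0.65 and from -3.05 to 1.07. With the library set as a term in the fit Arg1 was lower at 8 h under both labels (-1.61, adjusted p = 0.000137, and -1.10, adjusted p = 0.00383). In set B alone it fell from 5.68 to 1.90 CPM in WT-labelled cells (log2 -1.56, adjusted p = 1.22e-06) and from 5.56 to 2.94 CPM in KO-labelled cells (-0.93, adjusted p = 0.000335). At 2 h the set B means were 5.53 and 4.88 CPM, and neither change passed the test (adjusted p = 0.911 and 0.459). In set A Arg1 did not pass the filter on low counts and was not tested.

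Arg2 (ENSMUSG00000021125, chr12:79130777-79156301, plus strand) rose with LPS from nearly nothing, at a low level. WT-labelled controls held 11 counts in all 6 libraries together, the 2 h libraries 253 and the 8 h libraries 80. The means were 0.121 ± 0.094, 2.86 ± 1.48 and 1.33 ± 1.24 CPM (SD, n = 6), and all 6 libraries at 2 h lay above every control. The log2 change was 4.42 (SE 0.72, adjusted p = 5.79e-06) at 2 h and 3.36 (SE 0.77, adjusted p = 0.000221) at 8 h, and in KO-labelled cells 3.60 (adjusted p = 0.000206) and 3.45 (adjusted p = 0.000146). At 8 h the level was kept in set B (2.42 CPM in WT-labelled and 2.53 in KO-labelled cells) and low in set A (0.234 and 0.345 CPM), where the WT-labelled change from control no longer passed the test (1.83, adjusted p = 0.203). The change from 2 h to 8 h in WT-labelled cells differed between the sets, by 3.15 on the log2 scale (SE 0.75, adjusted p = 0.00386). Vti1b on the opposite strand shares 285 of the 1428 exonic bases of Arg2 and held 34244 counts against 555 for Arg2 in all libraries. Gm48780, on the same strand as Vti1b, shares 116 bases with Arg2. Arg2 had 0 counts in 1 WT-labelled and 3 KO-labelled control libraries. Without a stated strand setting, reads of the genes in the shared stretches cannot be told apart.

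Nos2 and Arg1 draw on the same arginine, and their levels per length can be set side by side. The log2 ratio of Nos2 to Arg1, each as CPM plus 0.5 per kilobase of exon, was -2.56 ± 1.30 in WT-labelled controls, 2.65 ± 1.97 at 2 h and 10.17 ± 1.32 at 8 h (SD, n = 6). In KO-labelled cells the log2 ratio was -2.41 ± 1.53, 2.05 ± 0.84 and 10.31 ± 1.02. The ratio was below 0 in every control and above 0 in every 2 h library: the highest control value was -0.65 and the lowest 2 h value 0.62. The sign in controls is partly built in. With 0.5 added and longer Nos2 exons (4412 against 2228 bases), a library without reads of either gene would score below 0. In set A the WT-labelled controls together held 5 Nos2 and 19 Arg1 counts, and the KO-labelled ones 16 and 23. At 8 h the genotype labels differed by 0.15 (exact two-sided permutation test over 12 libraries, p = 0.823, where the smallest p the design allows is 0.00216).

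Odc1 (ENSMUSG00000011179, chr12:17544794-17551505, plus strand), the rate-limiting enzyme of polyamine synthesis, rose at 2 h and was back near its control level at 8 h. In WT-labelled cells it ran from 99.2 to 150 CPM in controls (median 126), at 2 h from 113 CPM upward (median 316, and 228 or more in the other 5) and from 86.1 to 135 at 8 h (median 109). At 2 h 5 of 6 libraries lay above every control, and replicate 1, at 113 CPM, lay among them. The log2 change was 1.19 at 2 h (SE 0.27, adjusted p = 0.000587) and -0.18 at 8 h (SE 0.27, adjusted p = 0.552), and with library totals alone -0.94 at 8 h (adjusted p = 0.00247), where the median of all genes was -0.83. KO-labelled cells had means of 145 ± 48.2, 343 ± 116 and 143 ± 56.5 CPM (SD, n = 6), with a log2 change of 1.24 at 2 h (adjusted p = 0.000368) and a return by 8 h (-1.27 from 2 h, adjusted p = 0.000123). Of 19 near-identical copies of Odc1 in the annotation, none held more than 1.28% of its counts.

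Set side by side per kilobase of exon, the order of the levels changed with LPS. In WT-labelled controls Odc1 was highest at 36.7 ± 6.21 CPM per kilobase, followed by Asl (9.13 ± 1.35), Slc7a1 (5.37 ± 2.35), Ass1 (4.85 ± 0.728), Gch1 (3.0 ± 0.295), Arg1 (1.37 ± 1.29), Slc7a2 (0.513 ± 0.226), Nos2 (0.104 ± 0.177) and Arg2 (0.0845 ± 0.0658; SD, n = 6). After 8 h Nos2 led at 608 ± 81 CPM per kilobase, ahead of Slc7a2 (78.7 ± 36.8), Gch1 (42.1 ± 2.62), Ass1 (41.7 ± 14.4) and Odc1 (32.3 ± 6.94). At 8 h the ranges of Gch1, Ass1 and Odc1 overlapped. Slc7a2 lay above Gch1 in set B but not apart from it in set A, where the values were 56.8, 35.6 and 45.1 against 40.8, 40.0 and 45.2 CPM per kilobase. In controls Slc7a1 overlapped both Ass1 and Gch1, while every Ass1 value (3.94 to 5.67) lay above every Gch1 value (2.51 to 3.33). Arg1 lay above Slc7a2 in set B controls only, and in set A it was 0.169, 0.216 and 0.187 against 0.346, 0.31 and 0.312. Control Nos2 was 0.462 in replicate 3 and 0.0679 or less in every other library, and its range overlapped that of Arg2. Across the 6 groups, Nos2, Slc7a2 and Gch1 had the same 3 tiers, control below 2 h below 8 h, with overlap only between the genotype labels at the same time. How many of all tested genes had such tiers was not counted, so this only describes these 3.

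The other genes of the pathway were taken from 8 lists, which include the 9 genes. Of 10 tested synthase genes and protein partners, 2 were higher and 1 lower at 2 h in WT-labelled cells, and 3 higher and 3 lower at 8 h. The shares over all tested genes were 20.3% higher and 17.7% lower at 2 h, and 34.2% and 37% at 8 h. Cav1, which encodes the caveolin that binds and holds back the endothelial synthase, went from 1.16 ± 0.417 to 78.5 ± 38.2 CPM at 2 h and 59.7 ± 13.2 at 8 h (SD, n = 6; log2 6.08, adjusted p = 3.15e-17, and 5.69, adjusted p = 3.78e-17). Nostrin, which encodes a trafficking protein of the endothelial synthase, fell from 28.0 ± 4.81 to 6.41 ± 1.13 CPM at 8 h (log2 -2.12, adjusted p = 1.15e-15). Calm2, which encodes calmodulin, a protein the synthases bind, was lower at 8 h (log2 -0.85, adjusted p = 6.06e-11). Nos3, the endothelial synthase, had 26 counts in all libraries and was not tested.

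The urea cycle and citrulline recycling list had 4 tested genes, all of them among the 9 described above (Arg1, Arg2, Ass1 and Asl), since Otc, Cps1 and Nags had 0 to 10 counts in all libraries. Within tetrahydrobiopterin synthesis, Gch1 alone was called higher at 8 h in WT-labelled cells, and 4 of the 6 tested genes were lower. Over all tested genes 34.2% were higher and 37% lower. Spr, which encodes the last enzyme of the synthesis, fell from 24.4 ± 2.65 to 8.75 ± 1.43 CPM (SD, n = 6; log2 -1.48, adjusted p = 5.46e-13). KO-labelled cells gave the same counts, 1 higher and 4 lower, with log2 -1.32 for Spr. In set B alone 2 were higher and 3 lower. The median of the 6 genes was -0.38 in WT-labelled cells.

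Of 10 tested genes of cationic amino acid transport, 4 were higher and 2 lower at 2 h, and 3 higher and 4 lower at 8 h, in WT-labelled cells. Over all tested genes 20.3% were higher and 17.7% lower at 2 h, and 34.2% and 37% at 8 h. Slc7a7, which encodes the light chain of a transporter that exports arginine, rose from 14.8 ± 3.22 to 25.9 ± 7.28 and 48.6 ± 10.6 CPM (SD, n = 6; log2 0.81, adjusted p = 0.0024, and 1.72, adjusted p = 1.08e-08). Its partner heavy chain Slc3a2 rose to 752 ± 148 CPM at 8 h (SD, n = 6; log2 1.03, adjusted p = 1.1e-07; 0.27 and adjusted p = 0.0916 with library totals alone). Slc7a6, which encodes another light chain, was lower at 8 h (-1.30, adjusted p = 1.2e-10). So was Slc25a15, the mitochondrial ornithine carrier (-1.19, adjusted p = 2.64e-09).

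All 7 tested genes of ornithine and proline metabolism were lower at 8 h in WT-labelled cells and 6 of 7 in KO-labelled cells, with 0 higher, against 37% and 37.2% of all tested genes called lower. The count was 6 of 7 in either set alone for WT-labelled cells and 7 of 7 with library totals alone, and the median was -1.0. Among them, Aldh18a1, which makes the proline and ornithine precursor from glutamate, fell from 33.0 ± 9.82 to 12.2 ± 1.35 CPM (SD, n = 6; log2 -1.43, adjusted p = 4.14e-06). Prodh, which opens proline breakdown, fell from 7.91 ± 2.5 to 2.89 ± 0.854 CPM (-1.47, adjusted p = 5.08e-05).

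Of 17 tested polyamine genes, 6 were higher and 1 lower at 2 h and 3 higher and 8 lower at 8 h in WT-labelled cells. Over all tested genes 20.3% were higher and 17.7% lower at 2 h, and 34.2% and 37% at 8 h. With library totals alone 1 polyamine gene was higher and 15 lower at 8 h. That scaling called 11034 genes in all, and 19.9% of those calls were higher. Sat1, the acetyltransferase that marks polyamines for export and breakdown, rose from 206 ± 36.3 CPM in controls to 720 ± 206 CPM at 8 h (SD, n = 6; log2 0.91 at 2 h, adjusted p = 0.000204, and 1.81 at 8 h, adjusted p = 4.09e-10). Srm, which encodes spermidine synthase, fell to 9.49 ± 3.66 CPM at 8 h from 37.6 ± 11.6 (-1.97, adjusted p = 2.38e-05). Amd1, which supplies the aminopropyl groups for that step, fell from 46.4 ± 14.3 to 20.3 ± 2.0 CPM (-1.19, adjusted p = 8.81e-06). Paox, a polyamine oxidase, fell from 19.8 ± 3.88 to 4.10 ± 0.699 CPM (-2.27, adjusted p = 5.29e-12).

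Of 11 tested methylarginine, creatine and agmatine genes, none was called at 2 h, and 2 were higher and 6 lower at 8 h under either label. Over all tested genes 37.9% (WT label) and 35.3% (KO label) were called at 2 h, and 71.2% and 72.1% at 8 h. The arginine methyltransferase genes Prmt7 (27.3 ± 3.2 to 5.88 ± 1.38 CPM, log2 -2.21, adjusted p = 5.48e-11) and Prmt3 (15.9 ± 2.28 to 3.66 ± 0.791 CPM, -2.11, adjusted p = 3.38e-10) fell at 8 h in WT-labelled cells (SD, n = 6). So did Ddah2, which encodes an enzyme that clears methylarginines, the natural inhibitors of the synthases (8.98 ± 2.02 to 2.75 ± 0.787 CPM, -1.72, adjusted p = 9.03e-09). Prmt9 was higher (0.98, adjusted p = 1.7e-07), with a value of 0.20 (adjusted p = 0.138) when library totals alone were used. Among genes of nitric oxide signalling and removal 3 of 8 were tested. Prkg1, a kinase activated by cyclic GMP, was higher at 8 h (1.0 ± 0.279 to 4.85 ± 2.64 CPM, log2 2.24, adjusted p = 5.04e-05), and Adh5, which removes S-nitrosoglutathione, lower (-0.39, adjusted p = 3.88e-06).

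**Figure D3:**
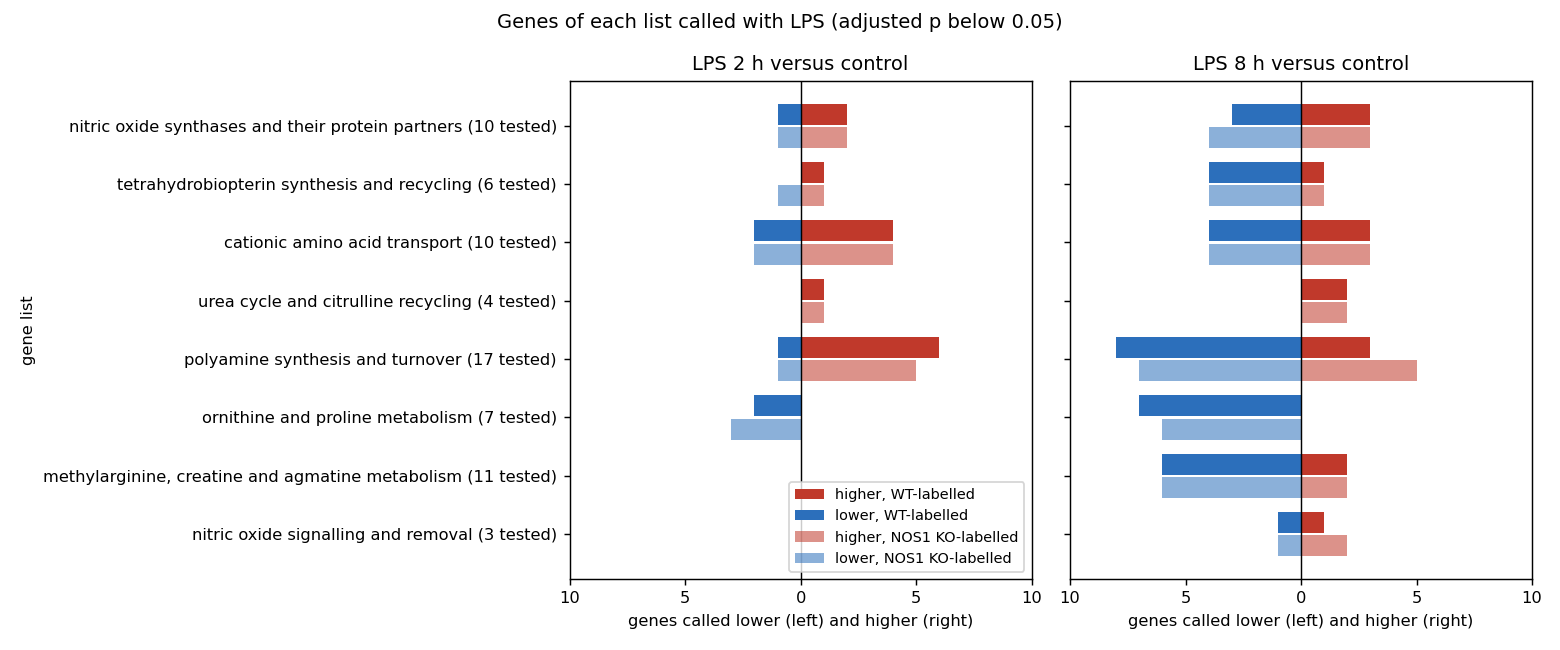
Number of genes of each list called lower (left of 0) and higher (right of 0) after 2 h and 8 h of LPS, at an adjusted p below 0.05; darker bars are WT-labelled and paler bars KO-labelled cells, and the number tested stands beside each list. All 7 genes of ornithine and proline metabolism are lower at 8 h in WT-labelled cells, where 37% of all tested genes are lower. With library totals alone the polyamine bars there become 1 higher and 15 lower, and 19.9% of all 11034 calls are higher.

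Between the genotype labels no gene of the 9 was called. The counts were 0 of 9 in controls (0.147% of all tested genes called), 0 of 9 at 2 h (0.0232%) and 0 of 9 at 8 h (0.1%). At an unadjusted p under 0.05 there were also 0 of 9 in each comparison, and DESeq2 called 0 as well. The 95% intervals of the 9 log2 differences lay between -2.09 and 2.25 in controls, -2.12 and 1.78 at 2 h and -1.74 and 2.87 at 8 h, and the widest intervals were those of the genes with few counts. The narrowest limits at 8 h were those of Asl (-0.34 to 0.11) and Gch1 (-0.22 to 0.28). No difference between the labels in the response to LPS was called over all libraries: the interaction called 0 of the 9 genes and 0 genes in all at 2 h and 8 h, with 0 of the 9 at an unadjusted p under 0.05. In set B alone the 8 h interaction called 2154 genes (16.6% of those tested), among them Ass1 (-0.48, adjusted p = 0.00232) and Gch1 (-0.46, adjusted p = 0.00027), whose rise was smaller under the KO label, and the 2 h interaction called 133 genes (1.03%) and 0 of the 9.

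By the number of libraries beyond the range of the other label, Nos2 at 8 h came closest to a separation. KO-labelled libraries held 3110 to 4680 CPM and WT-labelled ones 2360 to 3170 CPM, and 5 of the 6 KO-labelled values lay above the highest WT-labelled one. The log2 difference was 0.55 (SE 0.38, adjusted p = 0.723, 95% interval -0.23 to 1.33). In set B it was 0.89 (SE 0.15, adjusted p = 4.15e-05), with 4680, 4410 and 4550 CPM against 2570, 2360 and 2430. In set A it was 0.18 (SE 0.27, adjusted p = 1), with 3530, 3260 and 3110 CPM against 2470, 3100 and 3170. The difference between the sets was itself not called (0.71, SE 0.41, adjusted p = 0.373). In the edgeR test over all libraries, Nos2 at 8 h had an unadjusted p of 0.16. Smaller ones were 0.0998 (Gch1, controls), 0.105 (Ass1, controls) and 0.127 (Arg2, 2 h).

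At 2 h the order was the other way in set A. KO-labelled Nos2 there was 9.61, 4.78 and 9.24 CPM and WT-labelled Nos2 40.0, 14.9 and 18.9 CPM, a log2 difference of -1.67 (SE 0.31, adjusted p = 0.062). In set B the values were 24.1, 28.0 and 28.7 CPM against 17.7, 20.7 and 28.1 CPM, a log2 difference of 0.27 (SE 0.21, adjusted p = 0.525). The genotype difference at 2 h differed between the sets by 1.95 on the log2 scale (SE 0.49, adjusted p = 0.0254), where 2.25% of all tested genes were called, and Slc7a2 did so too (0.83, SE 0.22, adjusted p = 0.0409). In controls Gch1 was the member whose genotype difference differed between the sets (0.65, SE 0.16, adjusted p = 0.028; 2.01% of all genes). The sets were found in the counts, and this test was chosen after the values were seen.

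**Figure D4:**
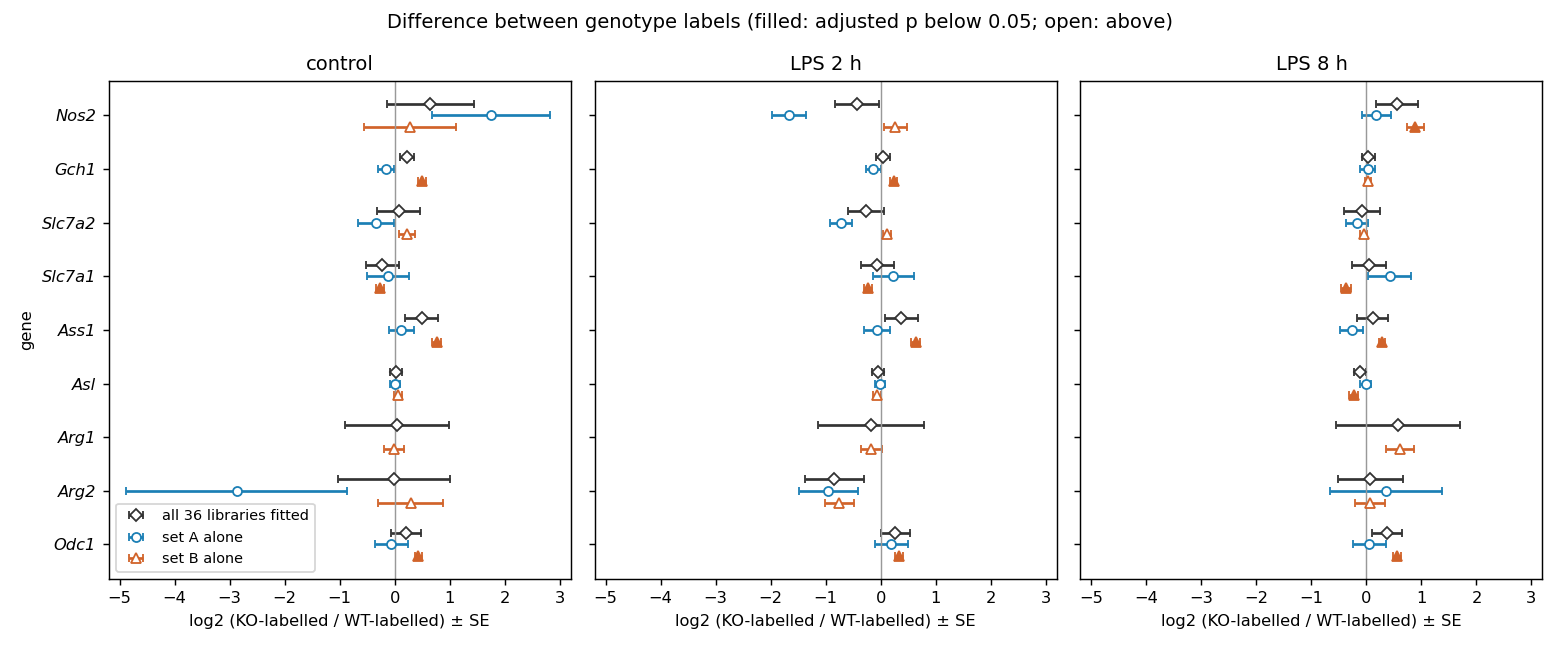
Log2 difference of KO-labelled over WT-labelled libraries for each gene in controls and after 2 h and 8 h of LPS, with SE: diamonds are the fit to all 36 libraries, circles set A alone and triangles set B alone; filled points have an adjusted p below 0.05, and Arg1 was not tested in set A. No diamond is filled, no circle is filled, and the filled triangles include Nos2 at 8 h (0.89).

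Set B alone, 3 against 3 libraries at each time, called 4 of the 9 genes in controls (10.5% of all tested genes called), 4 at 2 h (10.5%) and 5 at 8 h (31.5%). Set A alone called 0 of the 8 genes tested in it in each comparison, where 0.0548%, 0.0704% and 0.0469% of all genes were called. In set B controls Ass1 (12.7 CPM in WT-labelled, 21.2 in KO-labelled cells; log2 0.76, adjusted p = 2.98e-07), Gch1 (19.6 and 27.6 CPM; 0.50, adjusted p = 6.7e-06) and Odc1 (133 and 177 CPM; 0.43, adjusted p = 8.69e-05) were higher and Slc7a1 (85.6 and 70.3 CPM; -0.27, adjusted p = 0.0113) was lower under the KO label. The same 4 were called in the same directions at 2 h, and at 8 h Nos2, Ass1 and Odc1 were higher and Asl and Slc7a1 lower. Libraries of set B resembled each other more than those of set A, with a median chi-square per gene between replicates of 3.455 against 15.95, and the labels do not say whether they came from separate cultures. Neutrophil markers in set B summed to 155 to 310 CPM in WT-labelled and 88.9 to 193 CPM in KO-labelled libraries, and stromal cell markers to 32 to 205 CPM and 12.5 to 37 CPM. The 205 CPM was that of LPS 8 h replicate 5 alone, and the next highest stromal sum in set B was 60.2 CPM. The part of neutrophil or stromal cells in these differences was not tested.

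Most of the other genes stood higher in set B, and Asl did not. The set B mean was above that of set A in all 6 groups for Ass1 and Odc1, in 5 for Slc7a2, Slc7a1 and Gch1 and in 0 for Asl. For Gch1 the sets were apart in only 2 groups, in opposite directions. Its ratio of set B to set A was 1.72 in KO-labelled controls and 0.793 in WT-labelled cells at 2 h. The Slc7a2 ratio of set B to set A at 8 h was 2.43 in WT-labelled and 2.65 in KO-labelled cells, and that of Ass1 was 1.74 and 2.54. The Asl level in WT-labelled controls was 49.1, 50.8 and 50.1 CPM in set A and 37.0, 38.2 and 39.5 CPM in set B. Since the sets were drawn from the counts of all genes, these are descriptions and carry no test.

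The genes whose log2 levels followed each member most closely over the 36 libraries were taken from the 9314 more abundant genes (average log2 CPM at least 2). These correlations describe libraries that share 6 groups and 2 sets, so the common response to LPS is in all of them. For Nos2 they included AW112010 (Pearson r = 0.992), Cers6 (0.991), Car13 (0.991) and Dnaja2 (0.990). Slc7a2 was matched by Adora2a (0.992), which encodes an adenosine receptor, by the chemokine gene Ccl22 (0.988) and by the receptor gene Cd40 (0.988). Gch1 was matched by the guanylate-binding protein genes Gbp3 (0.993) and Gbp2 (0.992) and by Cd274 (0.993), which encodes PD-L1. Ass1 was matched by Slfn4 (0.985), Ms4a4c (0.973) and Selenow (0.972), and Arg2 by Snx18 (0.919), Dennd4a (0.906) and Ezr (0.905).

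The transient and the set-bound genes had other neighbours. Slc7a1 was matched by Syncrip (0.947), Larp4 (0.927) and Ddx21 (0.920), which encode RNA-binding proteins and an RNA helicase, and Odc1 by Sepsecs (0.920), Rraga (0.884) and Gtpbp4 (0.881). For Arg1 the closest were P4hb (0.927) and Rpn1 (0.927), which act in the endoplasmic reticulum, and Mmp8 (0.911), the neutrophil collagenase. For Asl they were Pea15a (0.886), Gabarapl1 (0.881) and Calcoco1 (0.875).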

How the data were processed

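Each library's deposited file gives the authors' unnormalized count of reads for every gene, made with HTSeq on mm10, per the submitters' processing notes. For the aligner, annotation, version and strand the answer is: not given in the sources used here. Symbols, positions and exon lengths came from GENCODE release M21 (54165 of 54232 identifiers matched), and 0 rows held unassigned reads. Counts were tested with edgeR 4.0.16 in R 4.3.3: filterByExpr, TMM scaling, 1 mean per group over all 36 libraries and the quasi-likelihood F test. P-values were adjusted by Benjamini and Hochberg's method over 12957 genes, with calls below 0.05, in 11 comparisons. SE values come from the F statistic. CPM uses TMM-scaled totals, and levels per length divide CPM by exonic length. The method was tested on simulated data. Replicate numbers follow accession order and only name a library. No replicate pair agreed within sampling noise (lowest chi-square per gene 2.15), so all 36 libraries were kept.

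The 9 genes, the pathway and marker lists and the tests were chosen with earlier results of these data known. Named were the 9 genes in every comparison, the gene of the KO label, up to 3 called genes per list, direction and comparison by fold among those averaging at least 1 in log2 CPM (here a selection of them), and the 5 genes most like Nos2 and 3 most like each other member, outside the 9 and without Gm-numbered or Rik-named predictions. A few genes that this rule or the lists name are not reported here. Of the list symbols, Slc66a1, Pycr3, Gucy1a3 and Gucy1b3 were not matched, and genes with few counts, such as Cps1, Otc, Gchfr and Ddah1, were not tested. Alternatives were DESeq2 1.42.0 as test or for size factors, library totals alone, no count filter, the compared groups alone, a term for the set in the fit, either set by itself, leaving out the 4 libraries with muscle reads or the 6 whose genotype label starts with BMDM, and leaving out each library.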

Additional observations from a re-analysis of the deposited data

Results flagged for a closer look

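Each of the 9 genes was checked in each of the 6 groups, 54 in all, for a library far from the other 5, which chance alone gives in about 1 of 20 groups. In WT-labelled controls, replicate 3 held 2.04 CPM of Nos2 against 0.3 CPM in the next library. In KO-labelled controls, replicate 3 likewise held 2.48 CPM of Nos2 against 0.657. The same KO-labelled control held 0.469 CPM of Arg2 (7 counts) against 0.121. In WT-labelled cells after 2 h of LPS, replicate 1 held 172 CPM of Slc7a2 against 121.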

How the results depend on the processing

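Every LPS comparison kept its count of called members within 1.5 times under the alternatives that gave a value. No paired analysis was possible because the replicate numbers follow accession order and the labels pair no libraries. The values below are log2 changes or numbers of genes called, and the cause was not tested. With library totals alone, genes called went from 4915 to 7618 (WT-labelled, 2 h), from 4568 to 7278 (KO-labelled, 2 h) and from 13 to 39 (genotype, 8 h). The signs turned for Ass1 (-0.03, -0.13) and Asl (-0.16, -0.21) at 2 h and, for genotype at 8 h, Arg2 (-0.01), Slc7a1 (-0.03) and Gch1 (-0.04). That scaling moved the median of all genes to -0.32 and -0.31 at 2 h, -0.83 and -0.88 at 8 h and -0.51 and -0.57 from 2 h to 8 h, and the share of calls that were higher from 53.4%, 53.5%, 48.0%, 48.5%, 47.8% and 48.3% to 20.7%, 20.3%, 19.9%, 19.5%, 22.3% and 21.9% in the same order. In set B alone the genotype comparisons called 4, 4 and 5 members and 1362, 1363 and 4084 genes (control, 2 h, 8 h), against 19, 3 and 13, and the interactions 133 genes at 2 h and 2 members (Ass1, -0.48, and Gch1, -0.46) and 2154 genes at 8 h. Signs turned there for Asl (0.13) and Odc1 (0.01, and 0.13 under the KO label) at 8 h, Arg2 from 2 h to 8 h (0.59, KO-labelled), for genotype Arg1 (-0.02) and Arg2 (0.29) in controls, Nos2 (0.27) and Slc7a2 (0.12) at 2 h and Slc7a1 (-0.38) at 8 h, and for the interactions Odc1 (-0.10) at 2 h and Nos2 (0.61), Arg2 (-0.23) and Slc7a1 (-0.12) at 8 h. In set A alone the genotype comparisons called 7, 9 and 6 genes. Signs turned for KO-labelled Ass1 at 2 h (-0.03) and Slc7a1 at 8 h (0.15), for genotype Slc7a2 (-0.34), Gch1 (-0.16) and Odc1 (-0.06) in controls, Ass1 (-0.06), Slc7a1 (0.23) and Gch1 (-0.13) at 2 h and Ass1 (-0.27) at 8 h, and for the interactions Arg2 (1.92) and Gch1 (0.03) at 2 h and Slc7a2 (0.17) and Gch1 (0.18) at 8 h. Without the 6 libraries labelled BMDM, 26 genes were called for genotype at 8 h, and signs turned for KO-labelled Odc1 at 8 h (0.00) and Arg2 from 2 h to 8 h (0.03), genotype Arg2 in controls (0.08) and Slc7a1 at 8 h (-0.01), and the 8 h interaction of Nos2 (0.03). DESeq2 called 74, 5 and 94 genes for genotype and 4 for the 8 h interaction, and the set as a term 30, 9 and 151, and 3. The compared groups alone called 1 gene in controls and 0 at 8 h, and no count filter 8 at 8 h. Without the libraries with muscle reads the genotype value of Slc7a1 at 2 h was 0.03. The genotype difference of the Nos2 to Arg1 ratio at 8 h was -0.21 with a pseudocount of 0.1 CPM and -0.05 in set A. Leaving out each library gave 3 to 73 (lowest without WT-labelled control replicate 2, highest without KO-labelled control replicate 2), 2 to 4 and 2 to 121 genes for genotype (control, 2 h, 8 h; at 8 h lowest without WT-labelled LPS 8 h replicate 5, highest without replicate 2), 0 to 1 for the 8 h interaction, and -0.14 to 0.44 for the ratio. The values whose sign turned ranged, for LPS, over -0.47 to 0.18 (Arg1, WT-labelled, 2 h), -0.00 to 0.28 (Ass1, KO-labelled, 2 h), -0.17 to 0.10 (Odc1, KO-labelled, 8 h) and -0.41 to 0.08 (Arg2, KO-labelled, 2 h to 8 h). For genotype in controls they were -0.56 to 2.09 (Nos2), -0.22 to 0.32 (Arg1), -1.09 to 0.34 (Arg2), -0.04 to 0.07 (Asl) and -0.11 to 0.26 (Slc7a2), at 2 h -0.57 to 0.21 (Arg1), -0.09 to 0.02 (Asl) and -0.26 to 0.05 (Slc7a1), and at 8 h -0.19 to 0.46 (Arg2), -0.04 to 0.23 (Ass1), -0.23 to 0.07 (Slc7a2) and -0.04 to 0.11 (Slc7a1). For the interactions they were, at 2 h, -2.51 to 0.14 (Nos2), -0.61 to 0.17 (Arg1), -1.18 to 0.24 (Arg2), -0.27 to 0.01 (Ass1), -0.03 to 0.33 (Slc7a1) and -0.11 to 0.16 (Odc1), and at 8 h -1.54 to 1.11 (Nos2), -0.26 to 1.16 (Arg2) and -0.35 to 0.03 (Slc7a2). Depth limits Arg1, Arg2 and control Nos2, whose groups hold 11 to 296 counts in controls.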

Other observations

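One library, WT-labelled LPS 2 h replicate 1, was singled out after its values were seen. Within its group it had the highest Nos2 (40.0 CPM), Arg2 (5.55), Slc7a2 (172) and Gch1 (84.7) and the lowest Slc7a1 (28.3) and Odc1 (113). The medians of the group were 19.8, 2.76, 114, 62.1, 121 and 316 CPM in the same order.

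Nos1 itself changed with time under the KO label. It stood at 4.16, 3.49 and 1.63 CPM in controls, at 2 h and at 8 h, with log2 -1.35 at 8 h (SE 0.39, adjusted p = 0.00284, edgeR), and all 6 libraries at 8 h lay below every control. An antisense gene, Gm26995, overlaps its exons.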
